A study of Homo sapiens with 9 samples.

Results

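Pseudogenes are genomic copies of genes that have lost the ability to make the protein of their parent gene. The rows described here are those of the deposited log2 FPKM table of ACHN cells whose gene type contains the word pseudogene, with 2 histone pseudogenes left out. They number 1301 of the 18859 genes in that table. By their annotated class, 724 were processed, 91 transcribed processed, 189 unprocessed and 251 transcribed unprocessed, and 46 were unitary or of another kind. For 611 of them the name gave a parent gene that was itself in the table.

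ACHN is an established, adherent human renal carcinoma line, grown here in MEM medium. The groups were cells given 0.1% DMSO, the solvent control, cells given 25 nM piericidin A and cells given 50 nM piericidin A, with 3 libraries in each group. Piericidin A is a bacterial natural product that blocks complex I of the mitochondrial respiratory chain. All 9 libraries come from this single line, no allele or transgene is named, and the sources used here give neither the time of exposure nor the presence of DMSO in the piericidin A wells. The labels speak of duplicate samples from plate wells and name no separate cultures, so p-values measure the spread between these samples, which may be technical.

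A processed pseudogene arises when a messenger RNA is copied back into DNA and inserted elsewhere in the genome, so it lacks the introns and the promoter of its parent, and many lie inside the introns of unrelated genes. An unprocessed pseudogene arises from duplication of a stretch of DNA and can retain introns and regulatory sequence, and many lie in segmental duplications. The annotation adds the word transcribed where there is evidence of an RNA from the locus. A unitary pseudogene is a gene that lost its function without leaving an intact copy. Because pseudogenes resemble their parents, a sequenced fragment that fits both places can be assigned to either, and the sources used here do not give how the authors counted such fragments.

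The libraries held 24365472 to 29245674 fragments assigned to genes of the log2 table. Of the renal and carcinoma markers, PAX8 lay between 66.0 and 93.5 FPKM (a fragment count scaled to gene length and library total) and KRT8 between 100.9 and 143.9 FPKM, whereas VWF of endothelium reached at most 0.0149 FPKM and LYZ of leukocytes at most 0.0625 FPKM. Genes of the mitochondrial genome took 2.32 to 2.65% of the fragments of DMSO libraries, 3.82 to 5.11% of those of the 25 nM group and 5.20 to 6.84% of those of the 50 nM group. The number of genes above 0 was 23641 to 24222 in DMSO libraries, 23947 to 24653 at 25 nM and 25482 to 26388 at 50 nM. The mitochondrial share thus rose with dose, while the number of genes above 0 stood apart at 50 nM only, with DMSO and 25 nM libraries overlapping. The part of these 2 quantities in the pseudogene results that follow was not tested. In bulk RNA, fewer cells with a transcript and less RNA per cell cannot be told apart.

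Several pairs show how far a pseudogene can be told from its parent by sequence. Each line gives the same stretch of the pseudogene and of the coding sequence of its parent, 5′ to 3′, from the GENCODE release 29 transcripts of the hg38 genome, with capitals at the bases that differ within the stretch. The first pair, MTATP6P1 at chr1:633696-634376 on the plus strand, is a nuclear copy of mitochondrial DNA and differs from MT-ATP6 at 1 of 90 bases. AK4P1 at chr17:31345521-31346187 (plus strand) and RPL41P1 at chr20:21755270-21755350 (plus strand) do not differ from AK4 and RPL41 in the stretches shown, of 90 and 75 bases. HMGA1P2 at chr4:73098822-73099145 (plus strand) differs from HMGA1 at 5 bases and PHBP9 at chr10:100248271-100249095 (plus strand) from PHB at 4. GAPDHP1 at chrX:39787132-39788136 (minus strand) differs from GAPDH at 4. ATP5HP4 at chr12:68642519-68642993 (minus strand) differs from ATP5H at 2 bases. These pairs are shown because, at 50 nM against DMSO, the log2 level of the first 3 pseudogenes relative to their parents changed by 0.06, 0.19 and -0.25, and that of the other 4 by 1.14 to 2.42. The 3 pairs with at most 1 differing base were those with small changes, but all pairs were picked for their change. Among the other 4, the number of differing bases did not order the change. ATP5HP4, with 2 differing bases in its stretch, changed by 1.92, and GAPDHP1, with 4, by 1.14. MTCO1P12, not shown here, also differs from its parent MT-CO1 at 2 of 90 bases. Both rose at 50 nM, as described further on.
MTATP6P1: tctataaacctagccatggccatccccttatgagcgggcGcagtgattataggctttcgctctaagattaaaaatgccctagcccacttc
MT-ATP6: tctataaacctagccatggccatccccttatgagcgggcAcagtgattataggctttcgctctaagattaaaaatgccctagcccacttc
AK4P1: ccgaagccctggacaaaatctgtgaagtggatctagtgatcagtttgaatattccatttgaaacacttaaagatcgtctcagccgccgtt
AK4: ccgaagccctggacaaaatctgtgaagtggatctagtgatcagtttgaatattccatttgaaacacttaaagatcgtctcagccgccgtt
RPL41P1: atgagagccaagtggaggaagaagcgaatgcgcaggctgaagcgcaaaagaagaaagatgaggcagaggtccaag
RPL41: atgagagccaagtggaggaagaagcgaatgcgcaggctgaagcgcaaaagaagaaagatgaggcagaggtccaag
HMGA1P2: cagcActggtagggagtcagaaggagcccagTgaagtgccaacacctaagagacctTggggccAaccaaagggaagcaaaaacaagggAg
HMGA1: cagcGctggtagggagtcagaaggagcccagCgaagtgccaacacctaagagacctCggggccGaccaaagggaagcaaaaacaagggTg
PHBP9: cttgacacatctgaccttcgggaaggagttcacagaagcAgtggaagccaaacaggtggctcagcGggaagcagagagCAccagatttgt
PHB: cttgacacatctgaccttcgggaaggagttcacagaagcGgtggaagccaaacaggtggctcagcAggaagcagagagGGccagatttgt
GAPDHP1: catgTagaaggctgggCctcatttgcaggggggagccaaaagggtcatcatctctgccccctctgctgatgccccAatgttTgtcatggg
GAPDH: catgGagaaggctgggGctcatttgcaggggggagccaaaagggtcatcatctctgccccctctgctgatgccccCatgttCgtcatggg
ATP5HP4: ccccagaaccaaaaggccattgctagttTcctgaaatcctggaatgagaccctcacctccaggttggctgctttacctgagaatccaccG
ATP5H: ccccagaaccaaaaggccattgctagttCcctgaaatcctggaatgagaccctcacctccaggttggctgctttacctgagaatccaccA

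Pseudogenes together took more of the sequenced RNA as the dose went up. Their share of fragments was 0.393, 0.399 and 0.388% in the DMSO libraries, 0.454, 0.440 and 0.459% in those given 25 nM and 0.568, 0.570 and 0.512% in those given 50 nM. The libraries of the 3 groups did not overlap. Unprocessed pseudogenes took 0.0372 ± 0.000789% in the DMSO group, 0.0425 ± 0.000349% in the 25 nM group and 0.0642 ± 0.00261% in the 50 nM group (SD, n = 3 each). Transcribed unprocessed pseudogenes took 0.102 ± 0.00200%, 0.114 ± 0.00348% and 0.168 ± 0.0115% in the same order of dose. The unprocessed kinds include nuclear copies of mitochondrial DNA, such as the abundant MTATP6P1, on which reads of mitochondrial RNA may be placed. Their part in these shares was not tested. Processed pseudogenes, with the largest share of the 5 classes, took 0.195 ± 0.00323%, 0.229 ± 0.0105% and 0.239 ± 0.0273%, and here the libraries of the 2 doses overlapped. Without the 10 most abundant pseudogenes, the share of the rest was 0.264 ± 0.00476%, 0.296 ± 0.00688% and 0.398 ± 0.0255% in that order. The number of pseudogenes at 1 FPKM or more was 399 to 406 in DMSO libraries, 425 to 461 at 25 nM and 535 to 564 at 50 nM.

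**Figure D1:**
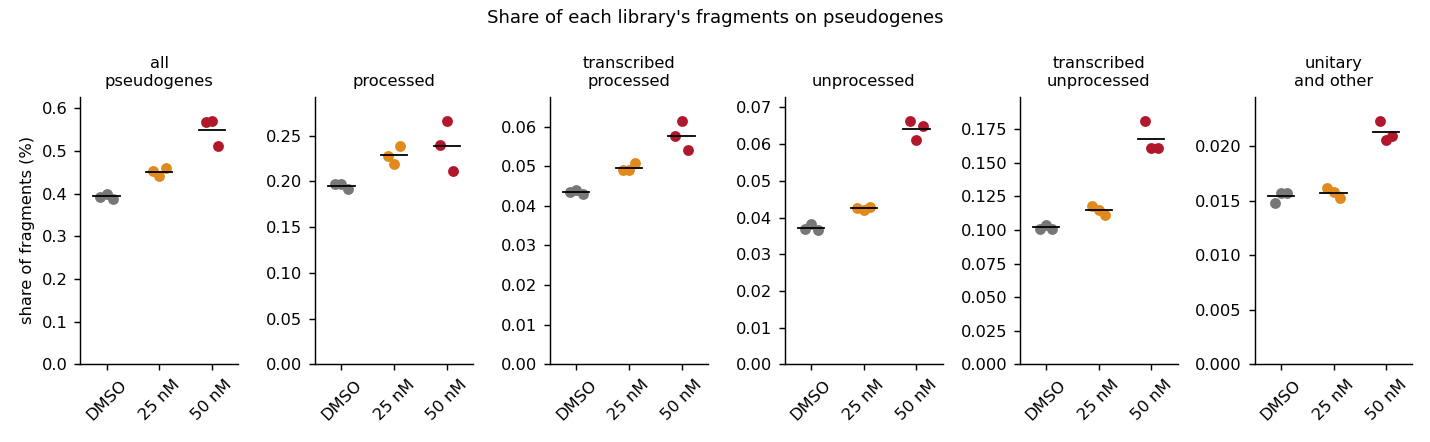
Share of each library's fragments (percent, vertical axes starting at 0) on all pseudogenes and on each of the 5 classes, in DMSO, 25 nM and 50 nM libraries. Points are libraries and lines are means of 3. For all pseudogenes the mean is 0.394% in DMSO, 0.451% at 25 nM and 0.550% at 50 nM. In each class but the processed one, the 50 nM libraries stand clear of both other groups.

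The level filter, at least 0.5 FPKM in at least 3 libraries, was passed by 805 of the 1301 pseudogenes. With 50 nM piericidin A, 343 of the 805 rose and 47 fell against DMSO at a limma adjusted p under 0.05. Over all 15541 genes tested, 29.2% rose and 31.5% fell in this comparison. Of the pseudogenes tested, 42.6% rose and 5.84% fell, with a median log2 fold change of 0.50, where the median of all genes tested was 0.00. In 183 of the 805 pseudogenes the rise was at least 2-fold, and in 8 the fall was. Of all 15541 genes tested, 1479 rose and 277 fell at least 2-fold. A fit with no filter, over all 1301 pseudogenes and 30673 genes, called 373 rises and 48 falls among the pseudogenes, 28.7 and 3.69% of them, beside 17.5% of all genes that rose and 15.6% that fell. Low values in DMSO cannot pass the filter unless the treated libraries are higher, so the 534 pseudogenes at 0.5 FPKM or more in all 3 DMSO libraries were also counted, a choice made after the data were seen. Of these, 209 rose and 46 fell at 50 nM, so that 39.1% rose, beside 26.0% of the 13170 genes that met the same condition.

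At 25 nM, 185 pseudogenes rose and 62 fell against DMSO, that is 23.0 and 7.70% of those tested, beside 26.3% of all genes tested that rose and 25.8% that fell. With no filter, 12.5% of the pseudogenes rose, beside 12.5% of all genes, and 4.38% fell, beside 12.2% of all genes. The share that rose was thus near the background at 25 nM and the share that fell was below it. The median log2 fold change of the tested pseudogenes was 0.21, where all genes tested had 0.02. Replicate 3 of the 25 nM group stood apart from its group, with a chi-square per degree of freedom of 14.35 and 16.33 against the other libraries, which differed from each other by 2.24. Without it, 161 pseudogenes rose and 54 fell at 25 nM. Both comparisons with DMSO use the same 3 DMSO libraries.

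The direct comparison of 50 nM with 25 nM, which uses no DMSO library in its difference, called 179 pseudogenes higher and 16 lower at 50 nM. These are 22.2 and 1.99% of the tested pseudogenes, where 14.7% of all genes tested rose and 18.8% fell. The median of the tested pseudogenes was 0.29. Without replicate 1 of the 50 nM group, the counts were 112 higher and 9 lower. With no filter, 161 of the 1301 rose and 11 fell, beside 7.06% of all genes that rose and 7.57% that fell.

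**Figure D2:**
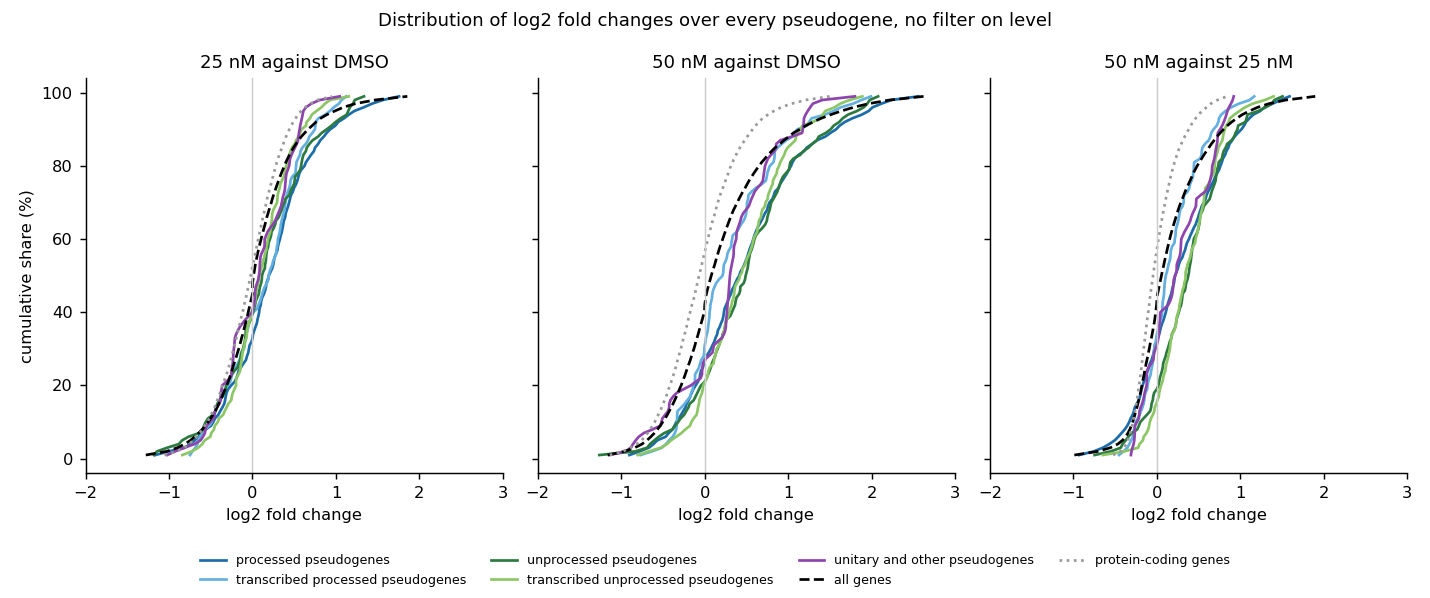
Cumulative share (percent) of genes up to each log2 fold change, in the fit with no filter, for 25 nM against DMSO, 50 nM against DMSO and 50 nM against 25 nM. Coloured lines are the 5 pseudogene classes, the dashed line is all 30673 genes and the dotted line the protein-coding genes. Around their middle, the pseudogene curves for 50 nM against DMSO lie to the right of both, with medians of 0.41 for processed and 0.49 for unprocessed pseudogenes, where all genes have 0.08.

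The classes did not move alike. For 50 nM against DMSO, 29.2% of all genes tested rose and 31.5% fell. Of 162 tested transcribed unprocessed pseudogenes, 89 (54.9%) rose and 7 fell, and of 122 unprocessed ones 55 (45.1%) rose and 11 fell. Among processed pseudogenes, 170 of 449 (37.9%) rose and 20 fell, and among transcribed processed ones 18 of 51 (35.3%) rose and 5 fell. The small remaining class had 11 rises and 4 falls among 21. Rises of at least 2-fold numbered 107 among the 449 processed, 34 among the 122 unprocessed and 29 among the 162 transcribed unprocessed pseudogenes. Among all 15541 genes tested they numbered 1479. Between 50 nM and 25 nM the classes lay further apart. Of the tested pseudogenes of both unprocessed kinds, 37.0% were higher at 50 nM, and of those of both processed kinds 13.4%, where all genes tested had 14.7%. At 25 nM against DMSO, 25.4% of both unprocessed kinds and 21.8% of both processed kinds rose, close to or below the 26.3% of all genes. Without replicate 1 of the 50 nM group, 26 processed pseudogenes were higher at 50 nM than at 25 nM, against 60 with it. Differences between classes carry no test.

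Some other gene types of the same table are rich in RNA from introns or from the opposite strand. At 50 nM against DMSO, antisense genes stood near the pseudogenes and sense intronic genes stood above them. Of 194 tested sense intronic genes, 59.3% rose at 50 nM against DMSO, with a median log2 fold change of 0.95. Antisense genes had 44.8% of 832 and a median of 0.51, lincRNA genes 26.4% of 598 and a median of 0.14, and protein-coding genes 25.7% of 11722 and a median of -0.09. Sense intronic genes took 0.0210 ± 0.000809% of the fragments in the DMSO group, 0.0248 ± 0.000769% in the 25 nM group and 0.0390 ± 0.00374% in the 50 nM group (SD, n = 3 each). The part of such RNA in the pseudogene values was not tested.

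The place of a pseudogene went with its change. By the positions in GENCODE release 29, which held 1294 of the 1301 pseudogenes, 529 lay in an intron of another gene, 307 over an exon of another gene and 458 between genes. Of the intronic pseudogenes, 157 of 336 tested rose and 17 fell at 50 nM against DMSO, and 96 of 184 over an exon rose and 9 fell. Between genes, 84 of 278 rose and 21 fell, a share of 30.2%, close to the 29.2% of all genes tested. With no filter, 33.1% rose in introns, 33.6% over exons and 19.7% between genes, beside 17.5% of all genes. Among processed pseudogenes of both kinds, 48.3% of 261 in introns rose and 20.8% of 178 between genes. Among unprocessed ones, 39.1% of 69 in introns rose and 47.3% of 93 between genes. The median FPKM of all intronic pseudogenes was 0.408 ± 0.00932 in the DMSO group, 0.544 ± 0.0573 in the 25 nM group and 0.803 ± 0.0644 in the 50 nM group. Between genes it was 0.513 ± 0.0147, 0.551 ± 0.0165 and 0.647 ± 0.0409 in the same order (SD, n = 3 each). The sources used here do not give whether the libraries record the strand, so RNA of the host cannot be told from RNA of the pseudogene in either orientation. With strand set aside, 71 of 137 intronic pseudogenes on the strand of the host gene rose and 86 of 199 on the opposite strand.

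Of 225 tested intronic pseudogenes with a tested host in the table, 123 rose at 50 nM. Of the hosts of those 123, 26 rose, 65 fell and 32 were not called, each pseudogene counting its host once. Among all protein-coding genes tested, 25.7% rose and 39.9% fell, which is the background for these counts. The median log2 fold change was 0.90 over the 225 pseudogenes and -0.18 over their hosts. RNA from an unspliced intron of the host over the pseudogene would be counted with the pseudogene, and its part in these values was not tested.

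The share of a pseudogene's sequence found in other genes went with its change in no single direction. For 1293 pseudogenes, the share of their 50-base windows that also occur in the transcripts of any other gene was computed. This split and its limits were chosen after the values were seen. Over all places, the median log2 fold change at 50 nM against DMSO, with no filter, was 0.51 with 10% or less shared, 0.31 with over 10 to 50% and 0.42 with over 50%, and 31.9, 23.8 and 29.6% rose. In the fit with no filter, for 50 nM against DMSO, the 233 intronic pseudogenes with 10% or less of shared windows had a median log2 fold change of 0.89, and 43.3% of them rose. The 160 intronic ones with over 50% shared had a median of 0.39, and 24.4% of them rose. Between genes, the same 2 groups had medians of 0.23 (146 pseudogenes) and 0.36 (138), and over exons 0.29 (60) and 0.55 (127). So the order in introns was the reverse of that at the other places. Rises of at least 2-fold, which 1479 of all 15541 genes tested had, numbered 77 among the 138 tested intronic pseudogenes of low sharing and 7 among the 83 of low sharing between genes. With over 50% shared they numbered 7 of 123 in introns and 15 of 95 between genes. These are counts of tested pseudogenes, and some that were low in DMSO passed the filter only through treated libraries. How many did so at each place was not counted, so the filter may add to the contrast.

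**Figure D3:**
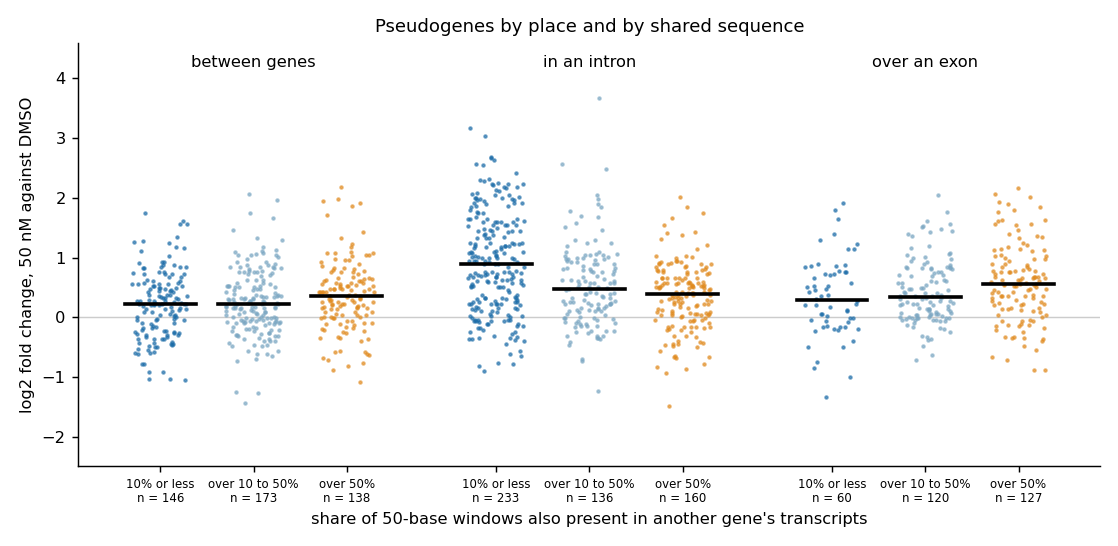
Log2 fold change at 50 nM against DMSO, in the fit with no filter, of each pseudogene (points) by its place relative to other genes and by the share of its 50-base windows found in transcripts of another gene. Black bars are medians. Intronic pseudogenes with 10% or less of shared windows have the highest median, 0.89.

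Several processed pseudogenes with large rises were intronic and scarce in DMSO. FAM133CP, a copy related to the FAM133 family in an intron of BICC1 on chromosome 10 (chr10:58715554-58716257, plus strand), had 0.262, 0.424 and 0.292 FPKM in DMSO libraries, 2.36, 1.48 and 2.59 FPKM at 25 nM and 4.78, 4.27 and 7.05 FPKM at 50 nM. Each group lay clear of the others. Its log2 fold change was 2.38 (SE 0.25, adjusted p = 9.2e-05) at 25 nM and 3.67 (SE 0.25, adjusted p = 4.53e-06) at 50 nM against DMSO. With all DMSO values under 0.5 FPKM, FAM133CP passed the level filter only through treated libraries. BICC1, which encodes an RNA-binding protein of kidney tubules, had 50.4, 50.8 and 51.2 FPKM at 50 nM, against 97.2, 94.7 and 98.7 FPKM in DMSO libraries, and fell by 0.93 on the log2 scale (adjusted p = 3.96e-06). Pseudogene and host thus went in opposite directions.

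HMGA1P2, a copy of the chromatin protein gene HMGA1 in an intron of ANKRD17, had 2.87, 1.55 and 2.04 FPKM at 50 nM, against 0.342, 0.461 and 0.106 FPKM in DMSO libraries. Its rise at 50 nM had a log2 fold change of 2.56 (SE 0.36, adjusted p = 0.000255), while ANKRD17 fell by 0.56 and HMGA1 did not pass the test (log2 fold change 0.14, adjusted p = 0.108). The fragments behind HMGA1P2 were few, 9 a library on average. Its DMSO values were all under 0.5 FPKM, so it passed the level filter only through treated libraries. ATP5HP4, a copy of the ATP synthase subunit gene ATP5H in RAP1B, rose with a log2 fold change of 2.55 (SE 0.58, adjusted p = 0.0049), at 4.07, 1.14 and 1.93 FPKM at 50 nM and 0.233, 0.157 and 0.505 FPKM in DMSO libraries. For ATP5HP4 the libraries within a group spread widely, but the 50 nM and DMSO libraries did not overlap. With 0.505 FPKM as its highest DMSO value, it could not pass the filter without treated libraries. AKR7A2P1, a copy of an aldehyde reductase gene in an intron of the lactate transporter gene SLC16A1, had a log2 fold change of 2.11 (SE 0.27, adjusted p = 0.000161), and SLC16A1 fell by 0.75.

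PHBP9, a copy of the mitochondrial scaffold gene PHB in an intron of CWF19L1, was measured with little spread. It had 1.57, 1.36 and 1.45 FPKM in DMSO libraries, 2.85, 3.00 and 3.32 FPKM at 25 nM and 5.95, 6.26 and 5.75 FPKM at 50 nM. The 3 groups were apart, with log2 fold changes of 1.02 (SE 0.08, adjusted p = 1.62e-05) at 25 nM and 1.97 (SE 0.08, adjusted p = 4.06e-07) at 50 nM. CWF19L1 rose too, by 0.46 on the log2 scale at 50 nM, and PHB did not pass the test at 50 nM (0.09, adjusted p = 0.192). RPL23AP64, a copy of the ribosomal protein gene RPL23A in CCDC84, had 13.9, 11.4 and 13.4 FPKM at 50 nM, against 4.16, 2.40 and 3.78 FPKM in DMSO libraries (log2 fold change 1.91, adjusted p = 6.71e-05). Its host CCDC84 rose by nearly the same log2 fold change, 1.99.

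Pseudogenes followed their parents more closely in the pairs with nearly the same sequence. Of the 611 pairs, 384 had both genes past the filter, with 247 distinct parents, and 3 of these had no measure of shared windows. In 100 pairs with 50% or more of the pseudogene's 50-base windows in the parent, Spearman's rho between the log2 fold changes of pseudogene and parent at 50 nM was 0.60 and Pearson's r 0.68. In 146 pairs with 5 to 50% shared, rho was 0.18, and in 135 pairs with under 5% it was 0.21. These are descriptions across genes, which share libraries and, in part, parents and fragments, and the limits were chosen after the values were seen. The pseudogene rose more or fell less than its parent in 73 of the 100 pairs of high sharing and in 95 of the 135 of low sharing. The difference between pseudogene and parent changed by no more than 0.5 on the log2 scale in 78 of the 100 and in 62 of the 135. Median identity over the aligned part was 99.3% in the pairs of high sharing and 88.7% in those of low sharing.

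**Figure D4:**
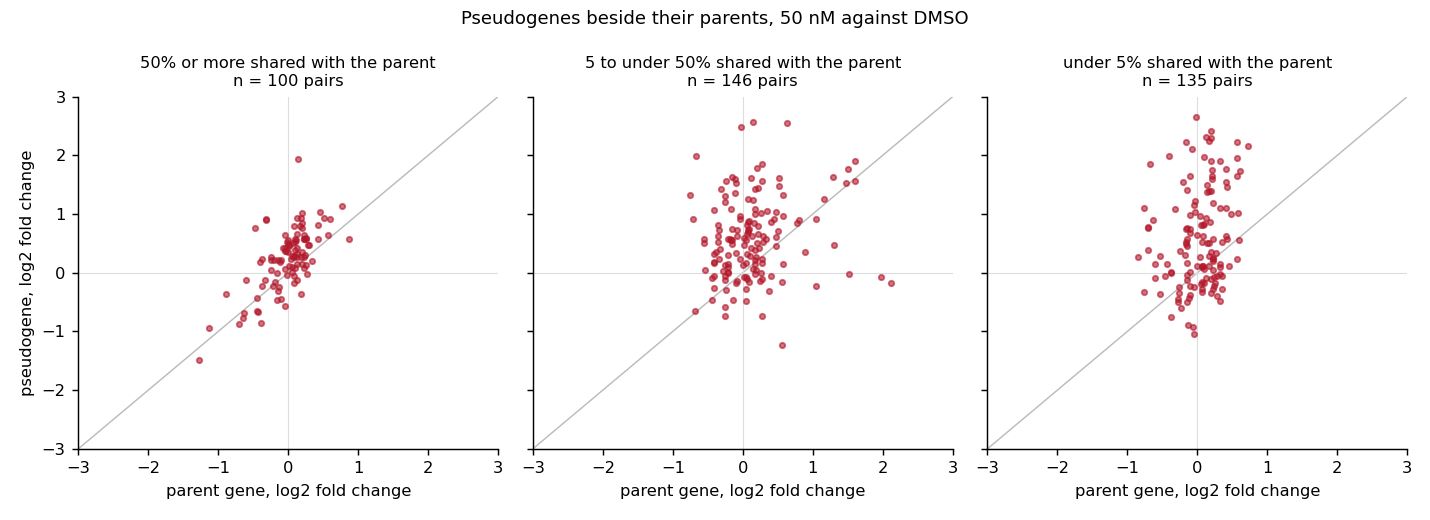
Log2 fold change at 50 nM against DMSO of the pseudogene (vertical axis) and of its parent (horizontal axis), one point a pair, in 3 panels by the share of the pseudogene's 50-base windows found in the parent. The diagonal marks equal change. With 50% or more shared the points run along the diagonal (rho 0.60, 100 pairs), and with under 5% they spread upward from it (rho 0.21, 135 pairs).

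AK4P1 and GAPDHP1 show both ends. AK4P1, an intronic copy in NF1 of the mitochondrial adenylate kinase gene AK4, had 2.38, 2.25 and 2.04 FPKM at 50 nM, against 3.77, 4.65 and 4.67 FPKM in DMSO libraries. It fell by 0.94 on the log2 scale (SE 0.11, adjusted p = 0.000106), and AK4 fell by 1.13 (SE 0.06, adjusted p = 1.56e-06). The level of AK4P1 relative to AK4, as a difference of log2 values, was -2.60 ± 0.14 at 50 nM and -2.79 ± 0.16 in DMSO, a change of 0.19 (SD, n = 3 each). All 50-base windows of AK4P1 also occur in transcripts of other genes. GAPDHP1, an intergenic copy on chromosome X of the glycolytic gene GAPDH, had 5.93, 6.25 and 5.67 FPKM at 50 nM, against 3.53, 4.16 and 4.16 FPKM in DMSO libraries, and rose with a log2 fold change of 0.58 (SE 0.11, adjusted p = 0.00128). GAPDH went the other way and fell by 0.56 (adjusted p = 2.97e-05). The difference of log2 values, GAPDHP1 minus GAPDH, was -7.46 ± 0.08 at 50 nM and -8.60 ± 0.16 in DMSO, a change of 1.14. Both pairs are shown for their change, so the differences are given without a test.

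For several intronic copies the level relative to the parent moved far. Between 50 nM and DMSO the change of the log2 difference was 2.42 for HMGA1P2, 2.17 for AKR7A2P1, 1.92 for ATP5HP4 and 1.87 for PHBP9. These pairs were chosen for this difference, so it is given without a test. For PHBP9 the difference from PHB was -1.97 ± 0.07 at 50 nM and -3.84 ± 0.07 in DMSO. KRT8P33, a copy of the keratin gene KRT8 in an intron of CEP120, changed by 1.62 relative to KRT8, and its own level was 2.28, 1.76 and 1.60 FPKM at 50 nM, against 0.649, 0.577 and 0.530 FPKM in DMSO libraries. KRT8 did not pass the test at 50 nM (log2 fold change -0.10, adjusted p = 0.215).

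**Figure D5:**
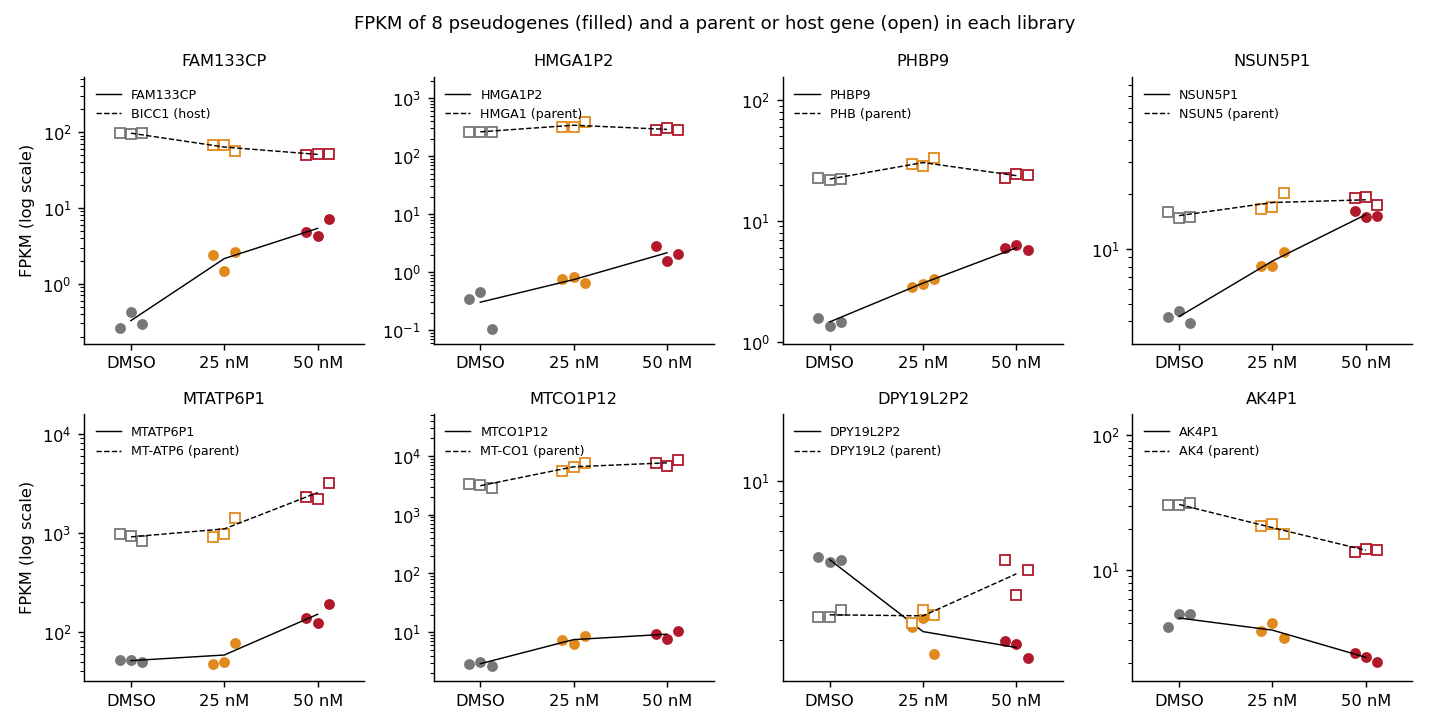
FPKM (log scale) in each library of 8 pseudogenes (filled circles) and of a parent gene, or for FAM133CP the host BICC1 (open squares), in DMSO, 25 nM and 50 nM libraries. Lines join the group means. FAM133CP, HMGA1P2, PHBP9 and NSUN5P1 climb with dose while the partner stays within a narrower range or falls, MTATP6P1, MTCO1P12 and AK4P1 move with the parent, and DPY19L2P2 falls while DPY19L2 rises at 50 nM.

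Many of the 10 most abundant pseudogenes were copies of genes for the cytosolic ribosome. MTATP6P1, a copy of mitochondrial DNA, is also among them and is described further on. RPL41P1, which has the coding sequence of RPL41, had 2517, 2570 and 2465 FPKM in DMSO libraries, 2659, 2835 and 3058 FPKM at 25 nM and 2024, 2267 and 2465 FPKM at 50 nM. It did not pass the test in either comparison with DMSO, and it was lower at 50 nM than at 25 nM by 0.34 on the log2 scale (adjusted p = 0.011), where RPL41 was lower by 0.29 (adjusted p = 0.0422). A per-length value of so short a gene depends strongly on its annotated length. RPS2P5, a copy of RPS2 in TAOK3, had 738.8, 719.0 and 866.6 FPKM at 25 nM, against 644.9, 597.5 and 605.8 FPKM in DMSO libraries, and rose by 0.33 (adjusted p = 0.00645), and RPS2 rose by 0.30 (adjusted p = 0.00634). RPS28P7, identical to RPS28 over its aligned length, had 373.7, 497.7 and 286.8 FPKM at 50 nM, against 250.8, 266.2 and 239.3 FPKM in DMSO (log2 fold change 0.58, adjusted p = 0.0197). RPL9P9 rose at both doses, by 0.37 at 25 nM and 0.28 at 50 nM. Without replicate 3 of DMSO neither RPS28P7 nor RPL9P9 passed at 50 nM. PPIAP22, a copy of the cyclophilin gene PPIA, rose by 0.40 at 25 nM (adjusted p = 0.00533), and EEF1A1P5, a copy of the elongation factor gene EEF1A1, passed the test in no comparison. Of the 110 pseudogenes of cytosolic ribosomal protein genes, 88 were tested. At 25 nM, 20 rose and 3 fell, a share of 22.7% that rose, below the 26.3% of all genes. At 50 nM 32 rose and 1 fell, a share of 36.4% that rose beside 29.2% of all genes, with a median of 0.40. The 2 with the smallest p were the intronic RPS11P5 (log2 fold change 1.78 at 50 nM) and RPL23AP64.

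Copies of mitochondrial DNA in the nucleus rose beside the mitochondrial genes themselves. Of 9 such pseudogenes, 6 were tested and 5 rose at 50 nM against DMSO, where 29.2% of all genes tested rose. All 5, and the 1 that did not, MTND1P23, lie close together on chromosome 1, so they are not independent loci. At 25 nM 2 of the 6 rose, a share of 33.3%, near the 26.3% of all genes tested. MTATP6P1, a copy of the ATP synthase gene MT-ATP6 with 98.5% identity, had 51.9, 51.9 and 50.0 FPKM in DMSO libraries, 47.4, 49.9 and 78.0 FPKM at 25 nM and 137.3, 123.8 and 190.3 FPKM at 50 nM. At 25 nM 1 library was high and the others overlapped DMSO (log2 fold change 0.15, adjusted p = 0.568), and at 50 nM all were above both other groups (1.53, SE 0.21, adjusted p = 0.000337). MT-ATP6 itself had log2 fold changes of 0.24 at 25 nM and 1.47 at 50 nM. MTCO1P12, a copy of the cytochrome oxidase gene MT-CO1, rose already at 25 nM. Its values were 2.90, 3.15 and 2.66 FPKM in DMSO libraries, 7.37, 6.39 and 8.68 FPKM at 25 nM and 9.48, 7.69 and 10.6 FPKM at 50 nM, with log2 fold changes of 1.33 (SE 0.14, adjusted p = 8.08e-05) and 1.63 (SE 0.14, adjusted p = 1.32e-05). MT-CO1 rose by 1.06 and 1.29.

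MTND2P28, a copy of the complex I subunit gene MT-ND2, had 7.29, 7.94 and 6.83 FPKM in DMSO libraries, 6.90, 6.93 and 8.30 FPKM at 25 nM and 15.9, 20.3 and 16.8 FPKM at 50 nM (log2 fold change at 50 nM 1.25, adjusted p = 1.26e-05). MT-ND2 had 0.21 at 25 nM, which did not pass, and 1.16 at 50 nM. MTCO2P12 (log2 fold change 1.90) and MTCO3P12 (1.76) were scarcer and also rose at 50 nM. The log2 difference of MTATP6P1 from MT-ATP6 was -4.08 ± 0.05 at 50 nM and -4.14 ± 0.09 in DMSO, a change of 0.06 (SD, n = 3 each). Of the 50-base windows of MTATP6P1, 46.7% also occur in MT-ATP6. Reads of mitochondrial RNA placed on the nuclear copy cannot be told apart from RNA of the copy in these values.

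Among pseudogenes of both unprocessed kinds, 63 of the 284 tested rose at least 2-fold at 50 nM against DMSO, as did 1479 of all 15541 genes tested. These kinds include nuclear copies of mitochondrial DNA described above. NSUN5P1, a transcribed copy on chromosome 7 of the ribosomal RNA methyltransferase gene NSUN5 (chr7:75410322-75416787, plus strand), had 4.22, 4.57 and 3.92 FPKM in DMSO libraries, 8.06, 8.06 and 9.61 FPKM at 25 nM and 16.2, 15.0 and 15.2 FPKM at 50 nM. With 1185 fragments a library on average, its log2 fold changes were 1.0 (SE 0.08, adjusted p = 2.35e-05) and 1.85 (SE 0.08, adjusted p = 5.98e-07). NSUN5 rose by 0.28 at 50 nM (adjusted p = 0.011). STAG3L5P, related to the cohesin gene STAG3, had 14.4, 12.6 and 12.9 FPKM at 50 nM, against 2.96, 3.61 and 3.10 FPKM in DMSO libraries (log2 fold change 2.01, SE 0.09, adjusted p = 6.79e-07). It overlaps PMS2P1 on the other strand, a copy of the mismatch repair gene PMS2, which had 17.4, 17.3 and 17.8 FPKM at 50 nM and 11.3, 12.6 and 11.6 FPKM in DMSO (log2 fold change 0.56, adjusted p = 4.16e-05). PMS2 did not pass the test. AGAP13P rose by 2.19 (SE 0.13, adjusted p = 1.78e-06) on 22.3 fragments a library, and 85.7% of its 50-base windows occur in other genes.

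CROCCP2, a copy of the ciliary rootlet gene CROCC, had 8.83, 7.92 and 7.93 FPKM at 50 nM, against 2.98, 2.68 and 2.96 FPKM in DMSO libraries (log2 fold change 1.48, SE 0.07, adjusted p = 7.92e-07). CROCC rose less, by 0.52. PLEKHM1P1 went up while its parent went down. It had 4.09, 3.51 and 3.50 FPKM at 50 nM, against 1.34, 1.36 and 1.27 FPKM in DMSO (log2 fold change 1.42, SE 0.08, adjusted p = 1.44e-06), and the lysosomal adaptor gene PLEKHM1 fell by 0.31 (adjusted p = 0.00219). WASH7P, a copy of a gene of the endosomal WASH complex, is listed at 2 places. On chromosome 12 it had 22.8, 22.1 and 20.3 FPKM at 50 nM, against 9.51, 10.7 and 10.3 FPKM in DMSO (log2 fold change 1.09), and on chromosome 1 it had 3.89, 4.79 and 3.29 FPKM at 50 nM, against 2.38, 1.88 and 2.05 FPKM in DMSO (log2 fold change 0.88). Of their 50-base windows, 74.5 and 92.5% occur in transcripts of other genes. FRG1CP, the most abundant of this list at 45.6 FPKM on average at 50 nM and 47.5 FPKM in DMSO, did not pass the test. Over the list named for gene families of segmental duplications, 47 of 83 tested rose and 6 fell at 50 nM. At 25 nM 24 rose and 8 fell, and 32 were higher and 0 lower at 50 nM than at 25 nM. That list was set by name stems, FAM and ZNF among them, so it also took in FAM133CP, a processed copy. The shares that rose were 56.6% at 50 nM, where all genes had 29.2%, and 28.9% at 25 nM, near the 26.3% of all genes. Between 50 nM and 25 nM, 38.6% were higher at 50 nM, where all genes had 14.7%.

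Of the 47 pseudogenes that fell at 50 nM, 21 lay between genes, 17 in an intron and 9 over an exon. These are 7.55, 5.06 and 4.89% of those tested at each place, where 31.5% of all genes tested fell. DPY19L2P2, a transcribed copy on chromosome 7 of DPY19L2, a gene needed to form the sperm head, had 4.63, 4.41 and 4.50 FPKM in DMSO libraries, 2.30, 2.51 and 1.75 FPKM at 25 nM and 1.98, 1.93 and 1.68 FPKM at 50 nM. Both doses lay below DMSO and overlapped each other, with log2 fold changes of -1.03 (SE 0.12, adjusted p = 0.000158) and -1.23 (SE 0.12, adjusted p = 3.08e-05). DPY19L2 rose at 50 nM by 0.56 (adjusted p = 0.00266), and the log2 difference of DPY19L2P2 from DPY19L2 was -1.02 ± 0.30 at 50 nM and 0.78 ± 0.07 in DMSO. RP11-467N20.7 fell by 1.44 and RP11-451F20.1 by 1.04 at 50 nM. UGT2B26P, of the glucuronosyltransferase family, fell by 0.98 at 25 nM and 0.78 at 50 nM, and LRRC37A16P by 0.73 and 0.72. FCF1P2, a copy of the small-subunit processome gene FCF1, fell by 0.89 at 50 nM (adjusted p = 0.0019), and LSM12P1, identical to LSM12 over its aligned length, fell by 0.78 (adjusted p = 0.0126), a call lost without replicate 1 of DMSO. LSM12 fell by 0.64. MTX1P1, a copy of the metaxin gene MTX1, fell by 0.37 at 50 nM (adjusted p = 0.00481), and MTX1 did not pass (log2 fold change 0.18, adjusted p = 0.068).

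The remaining family lists are small, and their counts at 50 nM are to be read against the 29.2% of all genes tested that rose and the 31.5% that fell. The share that rose was above that value for the respiratory chain (50.0%), chaperone (50.0%), cytoskeletal (62.5%) and nuclear protein (35.5%) lists and below it for the others in this paragraph. Of 10 tested pseudogenes of nuclear genes for the respiratory chain, 5 rose and 0 fell at 50 nM. The most abundant were SDHAP3 and SDHAP1, copies of the complex II gene SDHA, at 10.7, 9.86 and 11.2 FPKM for SDHAP3 at 50 nM, against 7.40, 6.65 and 6.34 FPKM in DMSO (log2 fold change 0.63, adjusted p = 0.000106). SDHA did not pass the test at 50 nM and had -0.08. Of 6 tested chaperone pseudogenes, 3 rose and 0 fell at 50 nM, among them CCT6P1 (log2 fold change 0.93) and CCT6P3 (0.84), copies of a subunit gene of the CCT folding complex. Cytoskeletal pseudogenes rose in 5 of 8, with TMSB4XP8, a copy of the thymosin gene TMSB4X, at 1.05 and TPM3P9 at 0.83. Of 10 tested pseudogenes for ferritin and redox proteins 2 rose at 50 nM, and both were scarce intronic copies. PRDX3P1 had 1.22, 1.36 and 1.64 FPKM at 50 nM, against 0.194, 0.196 and 0.269 FPKM in DMSO (log2 fold change 2.24, adjusted p = 0.000391). With all DMSO values under 0.5 FPKM, PRDX3P1 passed the level filter only through treated libraries. FTH1P1 rose by 1.99 while the ferritin gene FTH1 fell by 0.41. Of 31 tested pseudogenes of nuclear protein genes, 11 rose and 1 fell at 50 nM, with the histone copy H3F3AP4 at 0.27 and HNRNPCP1 at 1.03. Of 21 for translation factors 4 rose and 2 fell, of 10 for the proteasome and ubiquitin 1 rose and 0 fell, and of 3 for peptidylprolyl isomerases none was called at 50 nM. Of 4 tested glycolytic copies GAPDHP1 alone was called at 50 nM. TPI1P1, a copy of the triosephosphate isomerase gene TPI1, rose by 0.40 at 25 nM (adjusted p = 0.0421), a call lost with no filter, with values scaled to fragment totals and without any 1 library of the 25 nM group, replicate 1 of the 50 nM group or replicate 2 or 3 of DMSO, and was lower at 50 nM than at 25 nM by 0.69 (adjusted p = 0.00703), with 5.31, 6.11 and 3.92 FPKM at 50 nM and 8.80, 8.0 and 7.74 FPKM at 25 nM.

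A list of 61 pseudogenes whose transcripts have been described elsewhere had 27 members in the table, 19 of them tested. At 50 nM 15 rose and 0 fell, where 29.2% of all genes tested rose and 31.5% fell. At 25 nM 11 rose and 0 fell, where 26.3% of all genes rose and 25.8% fell. RPSAP52, antisense to the architectural chromatin gene HMGA2, had 7.03, 5.44 and 6.14 FPKM at 50 nM, against 2.11, 2.28 and 1.82 FPKM in DMSO libraries (log2 fold change 1.54, SE 0.17, adjusted p = 8.1e-05). Its host HMGA2 fell by 0.42 and its parent RPSA by 0.21. MSTO2P, a copy of a mitochondrial distribution gene, had 5.45, 4.85 and 5.10 FPKM at 50 nM, against 1.73, 1.81 and 1.54 FPKM in DMSO (log2 fold change 1.54, SE 0.07, adjusted p = 7.66e-07). POLR2J4 rose by 1.17. RP9P and its parent RP9 rose alike, by 0.85 and 0.77. ANXA2P2 and SUMO1P3 did not pass in either comparison with DMSO.

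Of the unitary and other pseudogenes, AP001052.1, on the strand opposite to the pyridoxal kinase gene PDXK and in its intron, had a rise at both doses. It had 7.09, 10.9 and 9.0 FPKM in DMSO libraries, 21.3, 20.3 and 23.9 FPKM at 25 nM and 44.2, 38.9 and 39.7 FPKM at 50 nM, and the 3 groups lay apart (log2 fold change at 50 nM 2.19, SE 0.14, adjusted p = 3.96e-06). PDXK fell by 0.38. FER1L4, of the ferlin family, did not pass the test at 25 nM (log2 fold change -0.01) and rose at 50 nM to 5.56, 4.92 and 4.67 FPKM, against 2.92, 3.05 and 3.07 FPKM in DMSO (0.72, SE 0.07, adjusted p = 3.6e-05). CCDC162P (1.32), AFG3L1P (0.86), a lost copy of a mitochondrial protease gene, and CCNYL2 (0.56) also rose at 50 nM. TMEM198B fell at 25 nM by 0.56 (adjusted p = 0.00155) and rose at 50 nM by 0.30 (adjusted p = 0.0277), a call lost with no filter and without replicate 1 or 3 of the 50 nM group or of DMSO. TRGV7, a T cell receptor gamma segment, had 7.89, 8.19 and 7.70 FPKM at 50 nM, against 11.6, 10.7 and 12.2 FPKM in DMSO, and fell by 0.53 (adjusted p = 0.00529). NUDT16P1 and its neighbour and parent NUDT16 fell together at both doses, by 0.38 and 0.30 at 25 nM and by 0.35 and 0.26 at 50 nM.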

How the data were processed

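RNA sequencing of ACHN cells gave 9 libraries in 3 groups of 3. The authors deposited FPKM for 30673 genes and log2 FPKM, with no pseudocount, for 18859 genes, and both agree within 0.005. Per the submitters' processing notes the build was hg38; aligner, counter, annotation release, strandedness and treatment of fragments that fit several places are not given in the sources used here. Deposited FPKM times gene length gave whole fragments for 100% of values within 0.01 of a whole number, 24365472 to 29245674 per library, used for shares and depth only.

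The plan assumed counts. Since the values are FPKM, limma 3.58.1 (lmFit, then eBayes with trend and robust, in R 4.3.3) was run on log2(FPKM + 0.1) of genes at 0.5 FPKM or more in at least 3 libraries (15541), with group as the only term and Benjamini-Hochberg adjustment over all of them; a gene was called at an adjusted p under 0.05. Fold changes are on that scale, which understates those of low genes. Differences between a pseudogene and its parent are given without a test. The fit was tested on simulated data.

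Parents came from names, hosts from positions in the deposited table, places and sequences from GENCODE release 29 matched by Ensembl ID, and identity from blastn 2.17.0. Named pseudogenes were the 5 largest rises and 5 largest falls per class and comparison (mean of at least 1 FPKM, groups not overlapping), the 10 most abundant, the leading members of each family list, the list with described transcripts, and the extreme pairs; MTCO2P12 and MTND1P23 were added to complete the mitochondrial list. Some pseudogenes that the rule names are not reported here. Members and lists were chosen with earlier results of these data known. Alternatives covered pseudocounts, filters, scalings, a replicate block, other eBayes settings, the 2 groups alone and each library left out. Replicates differed by more than sampling noise, so each counted once.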

Additional observations from a re-analysis of the deposited data

How the results depend on the processing

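Every alternative run kept the counts of pseudogenes that rose or fell against DMSO within 1.5 times those reported: with no library left out, 319 to 455 rises and 41 to 61 falls at 50 nM, and 163 to 235 rises and 57 to 92 falls at 25 nM. For 50 nM against 25 nM, rises numbered 151 to 226. The falls, 16 in the report, numbered 26 with no pseudocount, 8 with values scaled to fragment totals and 9 with only these 2 groups fitted. The cause was not tested. Leaving out each library in turn gave 112 to 172 rises and 9 to 24 falls for 50 nM against 25 nM, with both lowest values without replicate 1 of the 50 nM group. Processed pseudogenes then numbered 26 to 61 rises, and for 25 nM against DMSO transcribed processed ones 7 to 14 rises, lowest without replicate 1 of the 25 nM group and without replicate 3 of DMSO. With the replicate number as a block, rises and falls numbered 170 and 59 at 25 nM, 325 and 47 at 50 nM, and 161 and 16 for 50 nM against 25 nM; same-numbered libraries shared no clear deviation (correlations of -0.047 to 0.079), so the numbers name libraries only. Of 200 calls on named genes, 0 reversed, 163 passed under every alternative and 37 were lost under at least 1, among them 27 with no filter, 12 with fragment totals and 11 with the block. Of the calls given in the report, those lost under at least 1 alternative are LSM12P1, RPL9P9, RPS28P7 and TMEM198B at 50 nM against DMSO and TPI1P1 at 25 nM. Fragment totals moved the median of all genes by at most 0.099 on the log2 scale. Median-of-ratios factors were 1.0041 in every library, so that scaling could change no difference and tests nothing. Depth limits the scarce pseudogenes most: 786 of 1301 averaged under 20 fragments a library. Intervals were not computed, and PCR copies are not independent molecules.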
